A study of Homo sapiens with 24 samples.

Results

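SUPT11 is a line of human T-ALL, acute lymphoblastic leukaemia of the T lineage, and its expression before any drug was set against that of 3 other T-ALL lines, TALL1, P12.ICHIKAWA and RPMI.8402. The SUPT11 arrays with solvent alone were chosen by their titles, which gave 3 of the 24 samples of the series. They were compared with the 9 solvent arrays of the other lines, 3 per line, so that 12 arrays entered. All 12 samples had received DMSO at 0.5% for 16 h, and the remaining 12 arrays of the series hold the same lines with the compound NVS-ZP7-3. Expression was measured as polyA RNA on Affymetrix 3' arrays. Each line is a single leukaemia grown in culture, so a difference between lines is a difference between individual tumours as well as between kinds of leukaemia, and these cannot be told apart. Nothing in the labels says that the 3 arrays of a line came from separate cultures, and the p-values here rest on a spread among arrays that may be technical.

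T-ALL arises from developing thymocytes, and each leukaemia keeps much of the programme of the stage at which it stopped. Early cortical thymocytes express the recombinase genes RAG1 and RAG2, the polymerase DNTT and the CD1 molecules, and depend on Notch1 signalling. Later thymocytes shut these genes off and gain receptors for signalling and for leaving the thymus. Most T-ALL cases also carry a misplaced oncogene, such as the transcription regulators TAL1 and LMO2 or, more rarely, TCL1A, and many lack the CDKN2A locus.

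Values are on the deposited log2 scale, on which undetected genes lie at a floor of 2.18. A difference against a line at the floor is therefore a lower bound ("at least"), and groups at the floor have almost no spread, which can make standard errors and p-values too small. The 3 SUPT11 arrays correlated with those of another line at 0.715 to 0.758 (Pearson; the points are genes, not independent replicates). Arrays of any 2 of the other lines correlated at 0.803 to 0.865, and arrays of a line among themselves at 0.993 to 0.998. The median absolute difference of a gene between SUPT11 and another line was 0.631 to 0.672, against 0.374 to 0.485 between 2 of the other lines. RNA quality measures also differed: the ACTB 3' probe set exceeded the 5' one by 1.303 to 1.344 in SUPT11 and by 1.819 to 2.261 in the other lines, and the part of this in the results was not tested. For GAPDH the ranges overlapped, at 0.299 to 0.331 and 0.138 to 0.334. Markers of other cell types were low on the SUPT11 arrays: of 11 erythroid and platelet markers 0 reached log2 4, of 13 myeloid markers 0 or 1, and of 11 B cell markers 2. On RPMI.8402 replicate 3, by contrast, 6 myeloid markers, 3 erythroid and platelet markers and 10 of 15 NK and cytotoxic markers reached log2 4. Leaving that array out kept the direction and call of 179 of the 180 named genes (VIM lost its call) and moved no difference by more than 0.472, and the genes moved furthest among those described are given with both values.

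Of 10442 genes tested with limma, 8584 (82.2%) differed between SUPT11 and the mean of the other 3 line means at an adjusted p below 0.05 (Benjamini-Hochberg). They were 4518 higher (43.3%) and 4066 lower (38.9%). Against TALL1 77.6% of genes were called, against P12.ICHIKAWA 75.9% and against RPMI.8402 78.2%. A call against the mean is thus the rule rather than the exception, and it can come from 1 outlying line. The stricter count required SUPT11 to differ from each of the 3 lines in the same direction, which is called apart here. It held for 4701 genes (45%), 2579 on the higher side (24.7%) and 2122 on the lower side (20.3%). With a difference of log2 1 or more from every line, 1104 genes remained higher (10.6%) and 813 lower (7.79%). Of the 1917 genes apart by 1 or more, 832 had another probe set at log2 4 or more, and for 799 of these all such probe sets went the same way.

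Genes that were bright in SUPT11 and undetected elsewhere were common. At log2 6 or more in SUPT11 and below 2.5 on all 9 other arrays lay 235 genes, against 35 for TALL1, 29 for P12.ICHIKAWA and 137 for RPMI.8402 under the same rule. The reverse, below 2.5 in a line and at 6 or more in each of the others, held for 70 genes in SUPT11, 117 in TALL1, 29 in P12.ICHIKAWA and 11 in RPMI.8402. SUPT11 thus had the highest count of genes of its own, while TALL1 had the highest count of missing genes. These counts are descriptions with no test. They use every DMSO array, and RPMI.8402 replicate 3 had 16 genes at log2 5 or more that were below 2.5 on the other arrays of its line. Such genes can change the counts, which were not repeated without that array.

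**Figure D1:**
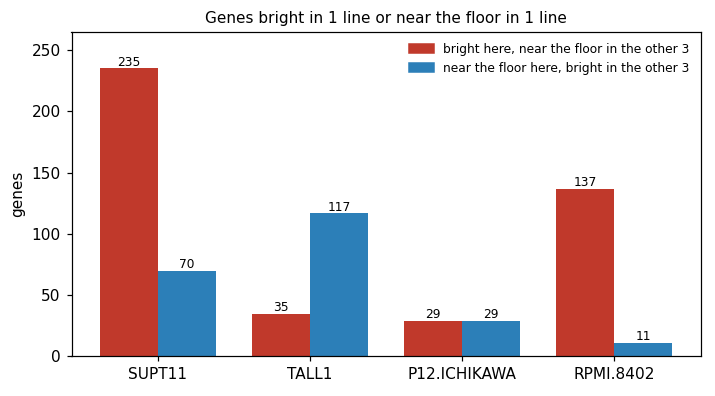
Number of genes (vertical axis) that were bright (log2 6 or more) in 1 line and below 2.5 on all 9 arrays of the others (red), or below 2.5 in 1 line and bright in each of the others (blue), on DMSO arrays. SUPT11 had 235 genes of the first kind and 70 of the second.

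The promoter sequences of 4 genes that mark the contrast are shown because, on the DMSO arrays, the genes were present on one side and undetected on the other: UCHL1, PTGDS and TCL1A in SUPT11 alone, and ADA in the other 3 lines alone. Each is the stretch of 250 bases before the annotated transcription start, from RefSeq (GRCh38.p14), printed 5′ to 3′ on the gene's strand with every CG dinucleotide in capitals. CG reads the same on both strands.
UCHL1, chr4:41256678-41256927, plus strand: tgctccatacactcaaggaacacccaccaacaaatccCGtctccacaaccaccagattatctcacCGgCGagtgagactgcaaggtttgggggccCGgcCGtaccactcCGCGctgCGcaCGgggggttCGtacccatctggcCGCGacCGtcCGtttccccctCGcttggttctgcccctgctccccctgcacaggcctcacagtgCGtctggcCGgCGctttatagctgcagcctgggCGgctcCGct
PTGDS, chr9:136977254-136977503, plus strand: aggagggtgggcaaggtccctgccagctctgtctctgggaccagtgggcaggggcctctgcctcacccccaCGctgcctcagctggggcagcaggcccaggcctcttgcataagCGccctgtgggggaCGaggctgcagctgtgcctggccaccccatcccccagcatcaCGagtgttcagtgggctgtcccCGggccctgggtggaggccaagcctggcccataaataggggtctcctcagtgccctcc
TCL1A, chr14:95714126-95714375, minus strand: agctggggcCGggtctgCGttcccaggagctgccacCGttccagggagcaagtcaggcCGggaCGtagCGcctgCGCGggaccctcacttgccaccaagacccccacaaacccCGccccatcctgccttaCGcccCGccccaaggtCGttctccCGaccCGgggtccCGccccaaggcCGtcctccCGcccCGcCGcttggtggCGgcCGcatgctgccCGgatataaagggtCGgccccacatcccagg
ADA, chr20:44651700-44651949, minus strand: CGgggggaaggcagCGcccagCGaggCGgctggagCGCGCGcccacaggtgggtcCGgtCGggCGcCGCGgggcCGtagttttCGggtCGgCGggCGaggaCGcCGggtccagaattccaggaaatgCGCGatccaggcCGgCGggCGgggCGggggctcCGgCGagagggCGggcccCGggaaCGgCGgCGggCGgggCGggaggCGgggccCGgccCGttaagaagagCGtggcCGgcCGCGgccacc
The UCHL1 stretch held 20 CG, a number reached by 32.5% of the 35116 promoters of the table. PTGDS held 5 (65.7% of promoters have as many or more), TCL1A 23 (25.8%) and ADA 41 (1.73%). Among the 14 largest rises below, 8 had a single promoter in the table, with a median of 8 CG (0 to 20). Among the 14 largest falls 8 did, with a median of 27.5 (0 to 41). The falls had to be bright in each other line and the rises in SUPT11 only. The sets thus differ in how widely their genes are expressed, and their medians were not compared by a test. The median over all promoters was 11, and no methylation was measured here.

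The 14 largest rises, ranked by the smallest difference from any line, were at or near the floor in all of the other lines. On the SUPT11 arrays they lay between 12.3 and 14.1 and on the 9 other arrays between 2.18 and 3.22. UCHL1, a ubiquitin hydrolase abundant in neurons, read 14.004, 14.139 and 14.037 on the SUPT11 arrays and 2.18 on every other array, a difference of at least 11.88 ± 0.04 (SE; limma, adjusted p = 2.8e-18). PTGDS, which makes prostaglandin D2, read 13.49, 13.64 and 13.51 in SUPT11 and 2.18 on every other array. TSPYL5, a relative of the nucleosome assembly proteins, read 13.59, 13.49 and 13.53 in SUPT11 and again 2.18 elsewhere. These 3 genes had been picked to mark the line with earlier results of these data known. Their groups did not overlap, which the rule for the 14 rises required.

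The other 11 rises joined several kinds of gene. BEX2, a small adaptor protein of brain, stood at 13.38 ± 0.03 (SD, n = 3), and the imprinted zinc-finger gene PEG3 at 12.94 ± 0.15. The zinc-finger genes ZNF883 and ZNF677 stood at 12.75 ± 0.02 and 12.53 ± 0.10, all 4 against the floor in the other lines. Zinc-finger symbols as a class (those that begin with ZNF, ZSCAN, ZKSCAN or ZFP) had 60 of 423 tested genes higher by 1 or more (14.2%, beside 10.6% of all genes) and 26 lower (6.15%, beside 7.79%). The enzymes among the rises were DDAH1, which degrades methylarginines (12.96 ± 0.01), ENPP2, which makes lysophosphatidic acid (12.57 ± 0.27), and SAMHD1, which breaks down deoxynucleotides (12.94 ± 0.07). The immune genes were the cytokine receptor IL21R (12.39 ± 0.08), the cytokine subunit IL23A (12.66 ± 0.04) and FGFBP2, a protein of cytotoxic lymphocytes (13.23 ± 0.10). TC2N, a C2-domain protein, stood at 12.99 ± 0.08. FGFBP2 and SAMHD1 were the only 2 of the 14 with an array of another line above 2.5, and leaving out RPMI.8402 replicate 3 gave differences of 11.00 and 10.71 in place of 10.89 and 10.66. Of the 14 rises, 10 had a further measured probe set, and in 9 of them all of these went the same way. IL23A was the exception: of its 3 other probe sets only 1 reached log2 4 in any line mean, and it did not go the same way. The IL23A rise thus rests on 1 probe set. The next genes in rank, IMPACT, CBR3 and NEBL, had smallest differences of 10.03, 10.02 and 9.98.

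The 14 largest falls were bright in every other line, between 11.9 and 15.3 on all 9 arrays, and lay between 2.18 and 3.46 in SUPT11. CDK6, the kinase that drives the G1 phase in lymphoid cells, read 2.27, 2.49 and 2.27 on the SUPT11 arrays and 15.28 ± 0.04 in TALL1, 15.21 ± 0.05 in P12.ICHIKAWA and, in RPMI.8402, 15.22 ± 0.03; all 5 of its other measured probe sets were lower too. The difference was -12.89 ± 0.05 (SE; limma, adjusted p = 1.3e-17). ADA, adenosine deaminase, and ARID1A, a subunit of the SWI/SNF chromatin remodeller, were at the floor of 2.18 on all 3 SUPT11 arrays, against 12.87 to 13.74 and 13.02 to 13.55 as line means elsewhere. PMAIP1 (NOXA), a pro-apoptotic BH3-only protein, was also at 2.18 on each SUPT11 array, against line means of 12.72 to 13.42.

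The remaining 10 falls were found at similar distances. The adaptor SH2D1A (SAP), which links SLAM receptors to FYN, was at 2.33 ± 0.12 in SUPT11 against 13.69, 13.48 and 13.82 in TALL1, P12.ICHIKAWA and RPMI.8402. Glutamine synthetase GLUL stood at 3.37 ± 0.08 against 14.71, 14.80 and 14.47, and the protease inhibitor TIMP2 at 3.13 ± 0.31 against 14.02, 14.81 and 14.68. The integrin chain ITGA4 stood at 2.41 ± 0.06 against 12.15, 13.69 and 12.05. MFHAS1, the SUMO-pathway coactivator ZMIZ1, GSE1, EPDR1, the GTPase GIMAP6 and the antiviral membrane protein IFITM1 completed the set. For the 11 falls with another measured probe set, all such probe sets were lower in SUPT11. Just below the set, GXYLT2, AQP3 and PHLPP1 had smallest differences of 9.45, 9.39 and 9.38.

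**Figure D2:**
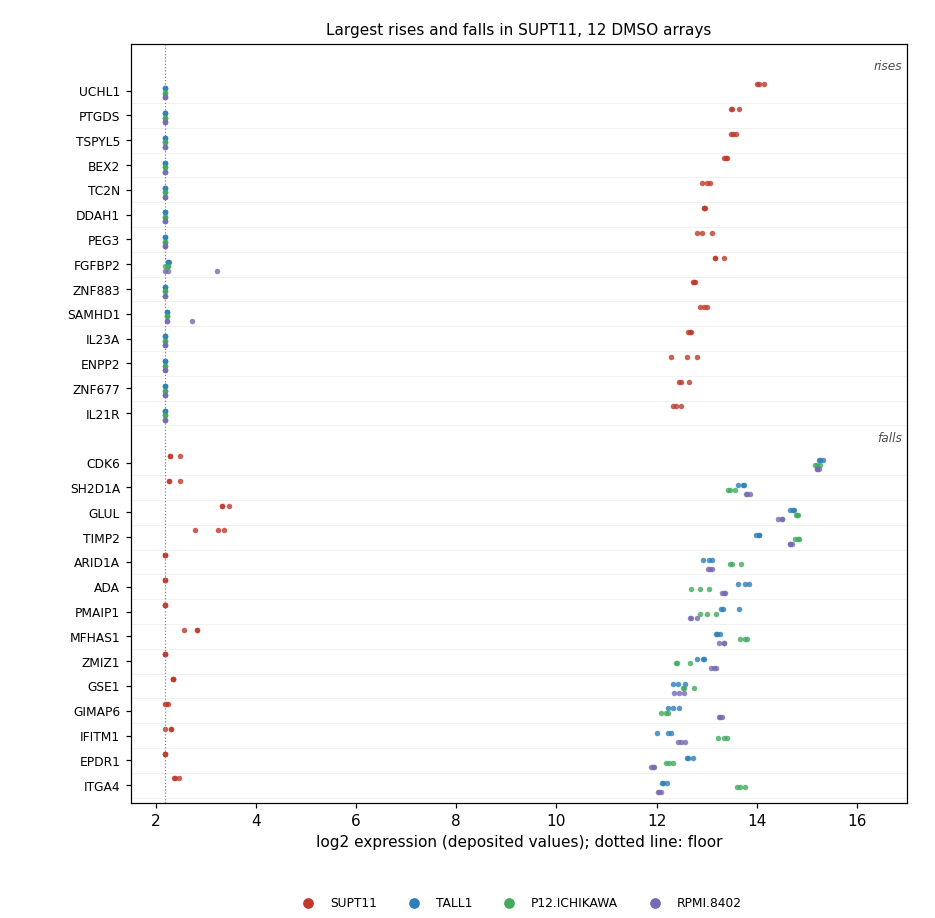
Deposited log2 expression (horizontal axis) of the 14 largest rises and 14 largest falls in SUPT11 on the 12 DMSO arrays, 1 point per array, coloured by line; the dotted line is the floor. The SUPT11 points lie between 12.3 and 14.1 for the rises and between 2.18 and 3.46 for the falls. The lack of overlap with the other lines was required by the choice of genes.

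The other families of the 3 marker genes were read next. Of 12 tested prostaglandin genes, 5 were higher and 4 lower, with a median difference of 0.29, beside 0.04 over all genes tested. Among all genes tested 43.3% were higher and 38.9% lower, shares to be read beside each list count below. For genes apart these shares were 24.7% and 20.3%, and by 1 or more 10.6% and 7.79%. The prostaglandin-degrading enzyme HPGD stood at 10.82 in SUPT11 against 2.18, 2.18 and 7.57 in TALL1, P12.ICHIKAWA and RPMI.8402 (the order used below). The carbonyl reductase CBR1 stood at 10.49, and PTGR1 at 5.60, each against the floor in the other 3 lines. AKR1C3, which makes prostaglandin F from D2, went the other way, at 2.37 against 11.20, 4.32 and 13.52. The receptor for prostaglandin D2, PTGDR, did not exceed 2.19 on any of the 12 arrays, and the other D2 synthase, HPGDS, stayed at 2.18.

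Among 11 tested genes of the TSPYL and NAP1L family, 4 were higher and 5 lower, and TSPYL5 was the only one of those tested to be undetected in each of the other lines. TSPYL1 stood at 13.79 against 13.47, 13.82 and 13.77 and was not called. Of 11 tested neuronal genes 6 were higher, each of them apart from all 3 lines, and 5 lower. SNAP25, a vesicle fusion protein, read 8.49, 9.11 and 8.93 in SUPT11 against line means of 2.18, 2.18 and 2.70. Synaptophysin SYP stood at 7.10 against 4.69, 3.25 and 3.21, and STMN3 at 13.61 against 12.37, 11.25 and 11.77. ENO2, another neuronal marker, was lower at 9.89 against 11.83, 10.51 and 12.42. A further 15 of the 26 listed neuronal genes did not pass the filter on low values.

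Genes of the recombining thymocyte were undetected in SUPT11 with DMSO. RAG1, RAG2 and DNTT were at 2.18 on all 3 SUPT11 arrays. Each had a high level in at least 1 other line: RAG1 averaged 14.83 in P12.ICHIKAWA and 8.05 in RPMI.8402, RAG2 8.75 in P12.ICHIKAWA, and DNTT 13.03 in TALL1 and 14.89 in RPMI.8402. Low levels were not particular to SUPT11. RAG2 was at 2.18 in TALL1 and RPMI.8402 too, RAG1 averaged 3.44 in TALL1, and DNTT averaged 3.78 in P12.ICHIKAWA. RAG1 read 4.73, 9.28 and 4.12 on the SUPT11 arrays with NVS-ZP7-3, where its difference of -2.67 was not called (limma, adjusted p = 0.1), beside -6.59 with DMSO. The treated TALL1 arrays also spread widely, at 2.24, 9.15 and 2.95. Without SUPT11 replicate 2 of the treated arrays RAG1 was called. The repair genes of the same pathway were expressed in all 4 lines, as PRKDC at 13.30 against 13.16, 13.60 and 13.22 shows. CD1A, CD1B, CD1C and CD1E, which present lipids on cortical thymocytes, were all at 2.18 in SUPT11, and 5 of 5 CD1 genes were lower than the mean of the other lines. RPMI.8402 had no CD1 gene at log2 4 or more either, so 0 of 5 were apart from all 3 lines. The coreceptor genes CD8A and CD8B were also at 2.18 in SUPT11, and CD4 did not pass the filter, with no DMSO array above 4.36. CD8A averaged 11.98 in TALL1 and 5.11 in P12.ICHIKAWA. The RPMI.8402 arrays read 2.18, 2.18 and, on replicate 3, 4.26, so CD8A was not apart from that line. The CD8A difference of -4.47 became -4.243 without RPMI.8402 replicate 3.

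The CD3 and receptor chains other than PTCRA were expressed in all 4 lines. Of 7 tested, 2 were higher and 5 lower, with a median difference of -0.56. CD3G stood at 14.30 against 13.93, 13.98 and 13.41, and CD3D at 14.17 against 14.88, 14.66 and 14.64. TRBC1 stood at 14.61 against 15.34, 15.25 and 14.94, but its other probe sets went the opposite way (1.15 as a mean of all probe sets) and the near-identical TRBC2 can share its signal. TRAT1, which stabilises the receptor complex, was lower than every line, at 11.49 against 13.64, 12.96 and 13.91. The pre-T receptor chain PTCRA stood at 4.02 against 7.26, 4.34 and 4.06. Its arrays read 4.064, 4.064 and 3.943 in SUPT11 and 4.064, 4.056 and 4.064 in RPMI.8402. Undetected probe sets give such repeated readings, so PTCRA may be undetected in these 2 lines.

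Several costimulatory receptors were high. Of 12 tested coreceptor and costimulator genes, 7 were higher and 4 lower, beside 43.3% and 38.9% of all genes. The median difference was 1.78, and 5 were apart on the higher side by 1 or more, beside 10.6% of all genes. CD28, the main costimulatory receptor, read 13.57, 13.44 and 13.46 in SUPT11, against 2.18, 11.45 and 12.33 as line means (difference 4.84 ± 0.05 SE; limma, adjusted p = 5.3e-15). CTLA4, its inhibitory relative, read 8.32, 8.26 and 8.43 against 3.01, 2.18 and 2.19. ICOS stood at 10.63 against 6.96, 9.08 and 3.44. The receptor modulators CD5 and CD6 stood at 11.72 against 2.25, 9.19 and 9.26, and at 11.21 against 6.80, 9.69 and 7.20. For each of these 5 genes the SUPT11 mean exceeded that of each other line and passed the test against it.

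The signalling genes below the receptor split. Of 18 tested, 9 were higher and 8 lower. The scaffold LAT stood at 12.66 against 10.88, 11.43 and 9.61, the phosphatase PTPRC (CD45) at 15.01 against 12.99, 13.75 and 12.89, and SKAP1 at 11.06 against 2.18, 10.76 and 2.18. The kinase ZAP70 was lower at 6.38 against 7.94, 7.29 and 8.49, and the phospholipase PLCG1 at 9.98 against 12.50, 12.34 and 12.24. LCK stood at 12.04 against 12.63, 13.04 and 13.14. SH2D1A, described above, was the widest difference of this list.

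Genes for homing and thymic exit also differed. Of 13 tested, 8 were higher and 5 lower, beside 43.3% and 38.9% of all genes, with a median difference of 2.22. By 1 or more, 5 were apart on the higher side and 4 on the lower, beside 10.6% and 7.79% of all genes. KLF2, a factor that drives exit receptors, read 11.02, 10.90 and 10.97 in SUPT11 against 2.37, 2.18 and 6.76. The lymph node receptor CCR7 read 10.13, 10.09 and 10.08 against 2.23, 4.15 and 2.29. CCR9, a receptor of thymocytes and gut T cells, was at 2.19 against 3.54, 10.18 and 8.20. CD44 stood at 14.32 against 9.90, 5.74 and 13.09, while S1PR1, the exit receptor itself, was at 10.23 against 2.38, 5.18 and 10.88 and so was not apart from RPMI.8402. PECAM1, an adhesion molecule, was at 2.41 against 11.58, 12.25 and 13.81.

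Transcription factors of the T lineage were partly shared. BCL11B, LEF1, GATA3 and TCF12 had differences between -0.50 and -0.18 from the mean of the other lines. ID2 and ID3, which hold E proteins in check, were high: ID2 read 12.85, 12.72 and 12.81 against 2.25, 5.28 and 7.41, and ID3 read 14.30, 14.84 and 14.86 against 9.40, 9.03 and 12.04. MYB, needed by immature thymocytes, was lower at 10.21 against 14.81, 14.81 and 14.84, and BCL11A was at the floor against 13.15, 13.62 and 10.93. EOMES was at 2.39 against 3.28, 9.35 and 7.26. Of the cytotoxic genes, granzyme A (GZMA) stood at 13.56 against 2.54, 9.39 and 7.14, and GZMM at 9.09 against 4.07, 4.34 and 4.11. The perforin gene PRF1 was at 2.18 and NKG7 at 3.41, so that 2 of 6 tested cytotoxic markers were higher and 4 lower.

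The known T-ALL oncogenes separated the 4 lines. TCL1A, a coactivator of AKT, read 10.10, 10.04 and 10.21 in SUPT11 and 2.18 on all 9 other arrays (at least 7.93 ± 0.04 SE; limma, adjusted p = 5.7e-17). Its neighbour TCL6 read 8.33, 8.07 and 7.62, again against 2.18. TAL1, LMO1, NKX2-1, HHEX and LYL1 were at the floor in SUPT11 and expressed in RPMI.8402 alone, and LMO2 was expressed in P12.ICHIKAWA alone. MEF2C stood at 8.55 in SUPT11 and 11.04 in RPMI.8402, at the floor in the remaining lines. Of 13 tested genes of this list 1 was higher and 12 lower, and only MYB, BCL11A and GFI1 were apart from all 3 lines. GFI1 stood at 8.03 against 12.98, 11.88 and 12.52. MYC stood at 11.93 against 11.87, 13.44 and 11.93, level with the TALL1 and RPMI.8402 means; its difference of -0.49 was 0.22 on the NVS-ZP7-3 arrays.

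**Figure D3:**
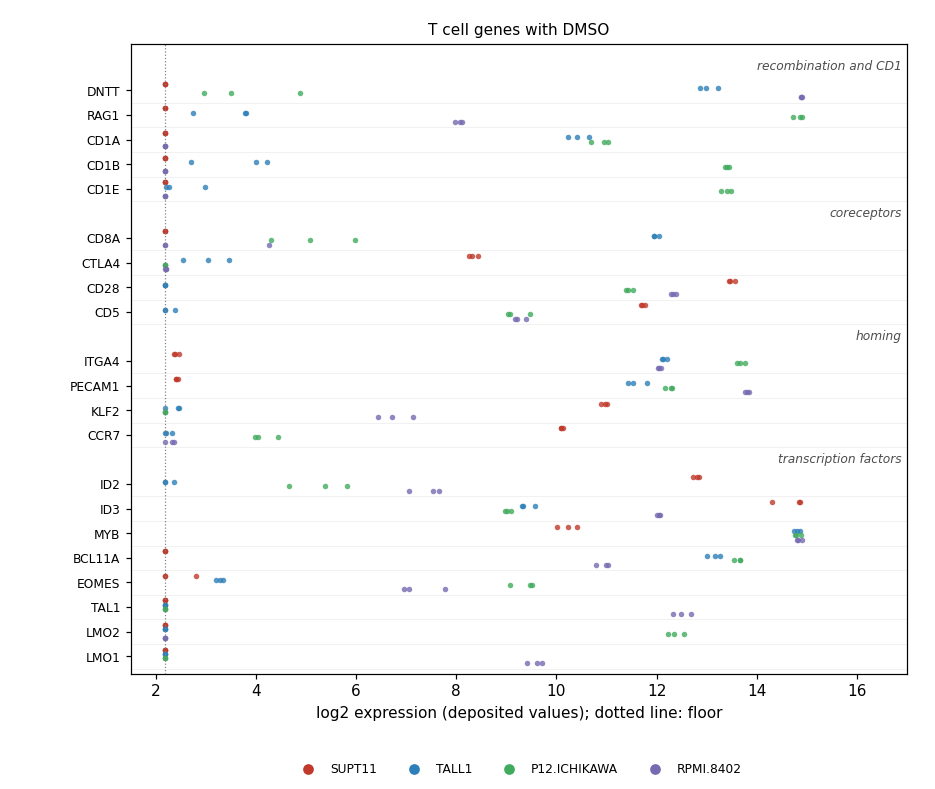
Deposited log2 expression (horizontal axis) of T cell genes on the 12 DMSO arrays, 1 point per array, coloured by line; the dotted line is the floor. SUPT11 was at the floor for DNTT, RAG1 and the CD1 genes shown and above the other lines for CTLA4, CD28, CD5, KLF2, CCR7, ID2 and ID3.

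NOTCH1, NOTCH3 and most Notch targets were low. Notch receptors are cleaved on contact with ligand, and the freed domain turns on targets such as HES1 and DTX1 together with RBPJ and a MAML coactivator. NOTCH1 read 2.45 on all 3 SUPT11 arrays against line means of 11.70, 10.75 and 11.95 (difference -9.02 ± 0.08 SE; limma, adjusted p = 4.8e-15). NOTCH3 was at 2.18 against 14.25, 8.32 and 11.73. NOTCH2 was present at 12.76 against 12.94, 12.79 and 11.48, and RBPJ at 13.47 against 13.69, 13.67 and 14.07. LFNG, a glycosyltransferase that tunes ligand response, was high at 11.17 against 2.36, 3.07 and 6.49 (difference 7.20, and 7.381 without RPMI.8402 replicate 3), and MAML2 stood at 7.78 against the floor.

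Of 14 tested Notch targets 13 were lower and 1 higher, with a median difference of -2.67, and 5 were lower than every line. HES1 read 5.17 on each SUPT11 array against 10.37, 9.35 and 11.46. An equal reading on all 3 arrays is what undetected probe sets give, so the NOTCH1 and HES1 differences may be bounds as well. DTX1 was at 2.20 against 11.31, 7.78 and 5.37, and IGF1R at 5.78 against 12.50, 11.58 and 11.54. NRARP was at the floor, as it was in P12.ICHIKAWA, and TALL1 alone stood at 11.04. IL7R was at 2.18 on all SUPT11 arrays against 11.46, 2.73 and 4.14, and the difference of -3.93 became -3.459 without RPMI.8402 replicate 3. CD300A was at 2.18 against 14.17, 9.80 and 3.91, and its difference of -7.11 became -6.705 without that array. TRIB2, the target on the higher side, stood at 13.16 against 11.14, 11.84 and 12.24.

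Of 22 tested genes of cytokine receptors and JAK-STAT signalling 8 were higher and 13 lower, with a median difference of -0.93. Among the higher ones IL21R was described above, IL10RA stood at 11.52 against 2.18, 2.18 and 2.95, and IL4R at 9.74 against 2.42, 2.18 and 2.18. Without RPMI.8402 replicate 3 the IL10RA difference was 9.33 in place of 9.08. The shared chain IL2RG was lower at 12.45 against 13.89, 14.13 and 14.19. STAT5B was lower at 8.16 against 10.37, 11.38 and 11.46, and the STAT5 target SOCS2 stood at 4.24 against 2.18, 9.68 and 11.43. STAT6, which signals for IL4R, stood at 11.23 against 10.10, 10.58 and 10.08.

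The GIMAP genes, a cluster of GTPases that support lymphocyte survival, were low together. All 6 tested were lower in SUPT11, 5 of them than every line by 1 or more, with a median difference of -6.92. GIMAP6 read 2.20, 2.18 and 2.23 against 12.34, 12.17 and 13.27. GIMAP7 kept a signal, at 6.08, 5.96 and 5.28 against 12.81, 12.06 and 13.998, and GIMAP2 read 4.56, 5.44 and 3.80 against 12.36, 12.12 and 12.78. GIMAP8 was at the floor in SUPT11 and at 2.19 in P12.ICHIKAWA, the one member not apart from all 3 lines.

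Interferon-stimulated genes were mostly low. Of 20 tested 14 were lower and 5 higher, beside 38.9% and 43.3% of all genes, with a median difference of -2.29. Lower than every line by 1 or more were 10, beside 7.79% of all genes. IFITM1, IFITM2 and IFITM3, membrane proteins that block viral entry, stood at 2.26, 2.75 and 2.66 in SUPT11, and no line mean elsewhere was below 7.71. These 3 genes are near-identical in sequence, and their probe sets can share signal. XAF1, a pro-apoptotic gene, was at 3.01 against 9.20, 8.66 and 9.85, OAS3 at 2.52 against 9.22, 6.48 and 9.03, and IRF1 at 7.83 against 11.64, 10.77 and 11.25. ISG20 at 9.38 against 4.29, 3.79 and 6.11, ISG15 at 12.68 against 9.72, 11.17 and 11.67, and IRF9 at 8.83 against 6.19, 3.49 and 5.05 were higher. Of the antigen presentation genes HLA-E stood at 13.01 against 12.19, 11.01 and 12.11 and the immunoproteasome subunit PSMB10 at 8.52 against 9.91, 9.99 and 9.98; HLA probe sets can share signal between loci.

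**Figure D4:**
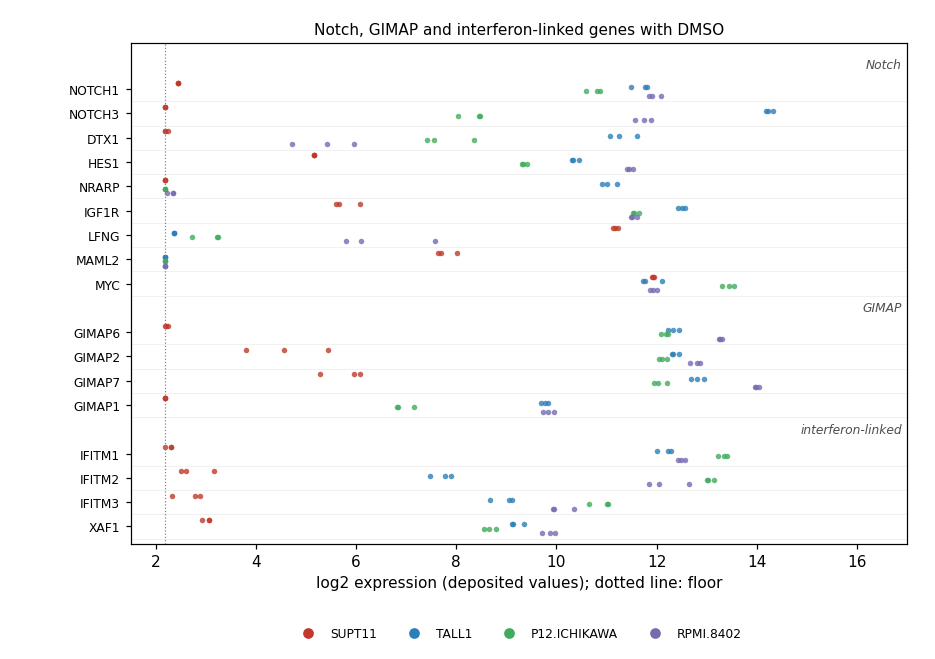
Deposited log2 expression (horizontal axis) of Notch, GIMAP and interferon-linked genes on the 12 DMSO arrays, 1 point per array, coloured by line; the dotted line is the floor. SUPT11 lies below the other lines for NOTCH1, NOTCH3, HES1 and the GIMAP and IFITM genes, and above them for LFNG and MAML2.

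Of 12 tested BCL2-family genes 7 were higher and 4 lower, a share called near that of all genes (82.2%). BCL2, which blocks apoptosis at the mitochondrion, read 2.18, 2.25 and 2.21 in SUPT11 against 12.75, 11.96 and 10.23, and its 2 other measured probe sets were lower too. BCL2L1 was at 6.09 against 8.93, 7.09 and 6.98. MCL1, a further protector, was higher than each line at 12.84 against 11.76, 11.62 and 11.50, and the effector BAX stood at 11.61 against 11.20, 11.12 and 10.94. PMAIP1, the BH3-only antagonist of MCL1, was at the floor as described above.

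Of 10 tested G1 cyclin and kinase genes 3 were higher and 5 lower, again near the share called among all genes. CCND2 read 13.97, 13.87 and 13.94 in SUPT11 against 2.18, 11.56 and 6.86, and its difference of 7.06 became 7.37 without RPMI.8402 replicate 3. CCND3 was lower at 11.20 against 13.70, 12.55 and 13.33. CDK4 stood at 12.67 against 12.70, 13.16 and 13.45, while CDK6 was near the floor. The pocket protein RB1 was at 11.22 against 13.78, 13.79 and 13.46, and CCNE1 was higher at 12.20 against 11.55, 11.02 and 7.55. CDKN2A, the inhibitor of these kinases, read 10.97, 11.22 and 11.11 against 10.06, 2.27 and 2.28. MTAP, which lies beside it, stood at 9.63 against 10.35, 2.18 and 2.18, so that SUPT11 and TALL1 expressed both genes and the other lines neither.

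Replication genes were modestly low as a group. Of 24 tested 21 were lower and 1 higher, beside 38.9% and 43.3% of all genes, with a median difference of -0.63. Lower than every line were 16, beside 20.3% of all genes. MCM5, a helicase subunit, stood at 7.77 against 9.88, 9.67 and 9.61, CDC6 at 9.29 against 10.98, 10.83 and 10.43, and ORC1 at 6.97 against 8.51, 9.45 and 9.01. Mitotic genes did not follow: 13 of 24 were higher and 6 lower, with a median difference of 0.27. CCNB1 stood at 13.83 against 13.27, 13.37 and 13.49, whereas AURKB was lower at 11.19 against 12.77, 12.57 and 12.91. The phase of the cells was not measured.

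In purine metabolism ADA and SAMHD1 stood at opposite ends. Of 21 tested genes 5 were higher and 10 lower. PNP, the enzyme after ADA, stood at 11.02 against 12.06, 11.11 and 11.01, and the kinase DCK at 14.24 against 14.36, 14.24 and 14.32. IMPDH2, the entry to guanine synthesis, was lower at 12.73 against 13.80, 13.86 and 14.08.

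The genes on which NVS-ZP7-3 is thought to act were read at baseline, since the compound series has been described as inhibitors of the endoplasmic reticulum (ER) zinc exporter SLC39A7 (ZIP7); the labels name no target. SLC39A7 read 9.82, 9.79 and 9.81 in SUPT11 against line means of 9.22, 10.00 and 9.53. The difference of 0.23 ± 0.10 (SE) was not called (limma, adjusted p = 0.060), and P12.ICHIKAWA stood above SUPT11; under 4 alternatives it passed the threshold. The plasma membrane zinc exporter SLC30A1 read 12.02, 12.14 and 12.11 against 10.97, 10.67 and 9.85, and the importer SLC39A4 stood at 8.90 against 4.46, 7.28 and 7.45. Of 17 tested zinc transporters 8 were higher and 4 lower. Among 7 metallothionein genes with MTF1 2 were higher and 2 lower, and MT2A was the widest, at 9.82 against 10.47, 11.80 and 11.58. Metallothionein probe sets can share signal.

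ER chaperones tended to be lower than the mean of the other lines. Of 24 tested 15 were lower and 7 higher, beside 38.9% and 43.3% of all genes tested. The median difference was -0.36, beside 0.04. Lower than every line were 8 of them, and 1 by log2 1 or more, beside 20.3% and 7.79% of all genes. HSPA5 (BiP) stood at 13.07 against 14.15, 13.37 and 13.23, and HSP90B1 at 12.30 against 13.70, 13.44 and 13.16. FKBP11 was higher at 12.02 against 11.46, 10.62 and 10.17, but on the NVS-ZP7-3 arrays its difference was -0.045 and not called. Of 15 stress sensors and factors 11 were lower and 2 higher. DDIT3 (CHOP), a factor induced by ER stress, read 3.68, 3.63 and 4.01 against 6.98, 7.07 and 5.57, and XBP1 read 7.43, 7.48 and 6.94 against 11.87, 2.68 and 11.27. ATF4 stood at 14.63 against 14.73, 14.67 and 14.43 and was not called.

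Of 23 tested targets of ATF4 and CHOP 8 were higher and 11 lower, beside 43.3% and 38.9% of all genes. ASNS, asparagine synthetase, read 13.22, 13.20 and 13.25 in SUPT11 against 5.89, 8.96 and 5.12 (difference 6.57 ± 0.24 SE; limma, adjusted p = 8.6e-10). PSAT1, which makes serine, stood at 13.39 against 2.18, 13.15 and 13.05, SESN2 at 9.33 against 6.88, 6.93 and 4.74, and CHAC1 at 6.55 against 2.25, 4.18 and 2.32. TRIB3 was lower at 4.74 against 7.21, 6.64 and 5.31, and ATF3 at 2.45 against 4.68, 7.42 and 10.19. ASNS is the enzyme that counters asparaginase, a drug used in this leukaemia; sensitivity to it was not measured here.

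Redox and heat shock genes held a few wide differences. SRXN1, a sulfiredoxin, read 7.50, 6.45 and 7.69 against 2.18 on every other array, and NQO1 stood at 10.41 against 9.55, 7.53 and 7.54. GSTM1 stood at 11.34 against 7.53, 9.97 and 8.54 and GSTM2 at 11.34 against 7.80, 10.07 and 8.84, 2 near-identical genes whose probe sets can share signal. BAG3 stood at 8.72 against 3.61, 7.001 and 6.65. Of 22 tested NRF2 and glutathione genes 11 were higher and 8 lower, and of 16 heat shock genes 9 were higher and 4 lower.

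The other lists were read in the same way. Of 17 tested ribosome biogenesis genes 10 were lower and 2 higher (1 when any of 8 single arrays was left out), with RRP12 at 4.32 against 6.42, 6.83 and 7.19. Of 16 cholesterol genes 9 were lower and 4 higher, and of 20 glucose genes 8 lower and 9 higher. The glucose transporter SLC2A3 stood at 11.44 against 9.43, 7.82 and 9.35, and the phosphofructokinase PFKP at 9.27 against 12.19, 11.33 and 12.10. The antigen presentation list had 2 of 12 higher and 7 lower, and the recombination list 1 of 9 higher and 5 lower. Of 15 T lineage factors 7 were higher and 7 lower, of 10 Notch receptor and ligand genes 5 and 4, and of 4 UCH and ubiquitin genes 2 and 2. The list of TCL1 genes and AKT kinases had 4 of 5 higher and 0 lower, with 2 apart from all 3 lines. Its higher genes were TCL1A, TCL6, AKT1 and AKT2. AKT1 stood at 11.35 against 11.92, 10.80 and 9.50, and AKT2 at 9.11 against 8.45, 9.12 and 8.68, so neither kinase was apart.

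Genes of stem cells and of other cell types were few. Of 7 tested progenitor genes 6 were lower and 1, MEF2C, higher, and CD34 was at the floor in SUPT11 and expressed in RPMI.8402 alone. Of 2 HOXA-list genes PBX3 was higher and MEIS1 lower. PRAME, the 1 tested cancer-testis gene, read 6.06, 6.12 and 5.65 in SUPT11 against 2.18 on every other array. Of 4 B cell markers 3 were lower and 1, CD79B, higher, a direction that turned when values below 4 were set to 4. Of 2 stromal markers COL1A1 was lower and VIM, at 13.79 against 13.24, 13.28 and 14.33, higher, though VIM turned to -0.29 with the mean of all probe sets and lost its call under 14 other alternatives, 9 of which left out a single array. The myeloid marker LYZ was not called, and no erythroid or MHC class II gene passed the filter.

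**Figure D5:**
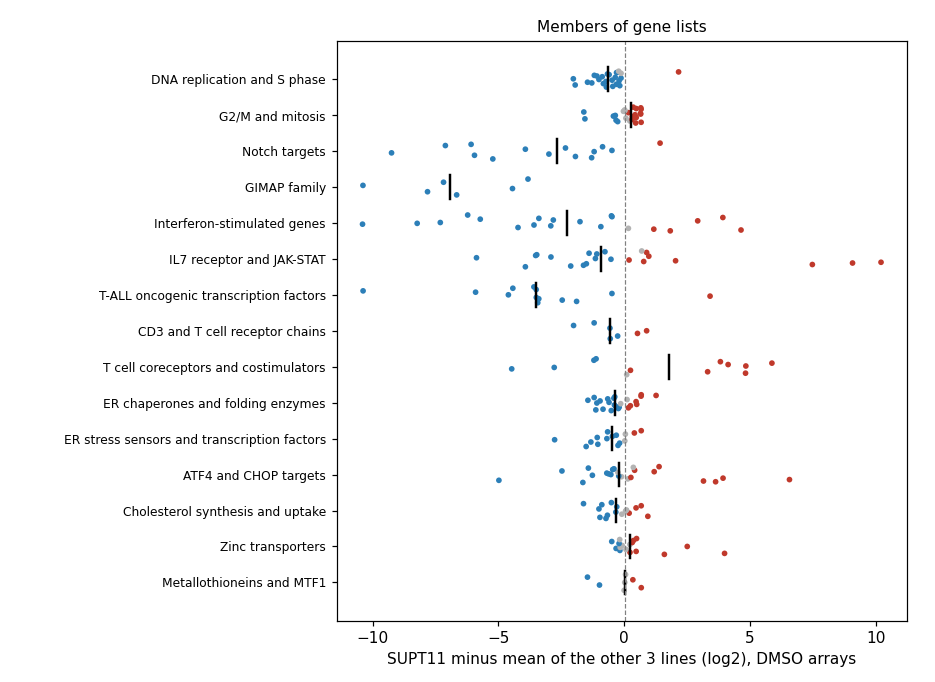
Difference between SUPT11 and the mean of the other 3 lines (log2, horizontal axis) for the tested members of 15 gene lists on DMSO arrays, 1 point per gene, red higher, blue lower and grey not called; black bars are list medians and the dashed line the median of all genes tested (0.04). The lowest median is that of the GIMAP family, -6.92.

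The same contrast was read on the 12 arrays with NVS-ZP7-3, which are separate samples of the same lines. Of the 1917 genes apart by 1 or more with DMSO, 1897 were tested there, all of them in the same direction against the mean, and 1835 were apart from all 3 lines again (1830 without SUPT11 replicate 2). The 14 rises lay between 12.2 and 14.1 on the treated SUPT11 arrays. On the treated TALL1 arrays FGFBP2 read 7.51, 7.74 and 7.64, and its SUPT11 difference changed by -1.70 (limma, adjusted p = 1.0e-05). The 14 falls lay between 2.18 and 9.92. The highest readings came from replicate 2 of the treated SUPT11 arrays, on which CDK6 read 9.53, TIMP2 8.89 and GLUL 9.92. For GLUL and CDK6 the rise was not confined to that array. GLUL read at least 6.92 on every treated SUPT11 array, against 3.32 to 3.46 with DMSO. CDK6 read 4.72 and 4.35 on replicates 1 and 3, against 2.27 to 2.49 with DMSO. ADA, by contrast, stayed at 2.18 on replicates 1 and 3.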

How the data were processed

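For the 24 arrays the authors deposited log2 values of 54675 probe sets in 1 table. GCRMA and limma are named, without versions or settings, per the submitters' processing notes; no genome build is given in the sources used here. GCRMA models background by probe sequence and leaves undetected genes at a common floor (2.18). Arrays carry no read depth, so the number of arrays limits the precision.

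Gene names came from the annotation of the platform, with symbols brought up to date in RefSeq (41097 with 1 gene, 1801 with several, 11777 with none; 41043 matched). The brightest probe set of a gene on the DMSO arrays stood for it, and it was tested when at log2 4 or more on at least 3 of the 12 arrays. A model of 4 line means was fitted to the 12 DMSO arrays by lmFit and eBayes (limma 3.58.1, R 4.3.3), which left 8 residual degrees of freedom and 10.02 in total, with Benjamini-Hochberg adjustment over 10442 genes. Gene lists (44) are described by counts and medians, with no set test; 1 list is not reported here.

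Named genes were the 14 largest rises and falls by the smallest difference from a line, at log2 6 or more on the bright side with no overlap, no more than 4 called members from each list, and named key genes of T-ALL and ER stress; further list members illustrate a list and were chosen after their values were seen. Y-linked genes, XIST and receptor gene segments were left out. The lines, members and lists were chosen with earlier results of these data known.

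Replicate numbers did not pair the samples: deviations from the group means correlated at a median of 0.03 for the same number in 2 lines (-0.36 to 0.21). On simulated arrays (10442 genes, 200 changed), 95% of changes of log2 1 were called against the mean and 81% were apart from all 3 lines; changes of 0.5 were called in 63% and apart in 43%. False calls numbered 9 and 0. The simulation had no floor. Alternatives covered filters, probe set choice, normalization, thresholds, spread, the treated arrays and leaving out each array.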

Additional observations from a re-analysis of the deposited data

Results flagged for a closer look

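For 8 named genes the distance between SUPT11 and the mean of the other lines differed by log2 2 or more between NVS-ZP7-3 and DMSO arrays, by a test of that difference (limma, all 24 arrays, adjusted p below 0.05). The TRIB3 difference changed by -3.557 (adjusted p = 7.83e-10), from -1.64 to -5.20. CHAC1 changed by -2.861 (adjusted p = 6.34e-10), from 3.63 to 0.77, and ATF3 by -2.079 (adjusted p = 3.31e-05), from -4.98 to -7.06. DTX1 changed by 2.819 (adjusted p = 5.75e-05), from -5.95 to -3.13. In SUPT11 itself DTX1 averaged 2.20 with DMSO and 2.19 with NVS-ZP7-3, and ATF3 2.45 and 2.43, so the other lines moved. Their DTX1 means went from 11.31, 7.78 and 5.37 to 9.66, 3.92 and 2.39. For ATF3 they went from 4.68, 7.42 and 10.19 to 8.36, 8.74 and 11.37. CHAC1 averaged 6.55 and 7.31 in SUPT11, and in the other lines went from 2.25, 4.18 and 2.32 to 6.13, 5.99 and 7.50.

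The other 4 genes were, like DTX1 and ATF3, near the floor in SUPT11 with DMSO. In these 4 the treated SUPT11 replicate 2 stood above the other treated SUPT11 arrays. CDK6 changed by 4.022 with that array and by 2.357 without it, GLUL by 4.606 and 3.671, TIMP2 by 2.915 and 1.374, and MFHAS1 by 2.291 and 1.168. Each remained called without the array, at adjusted p = 1.72e-11, 6.03e-15, 0.000115 and 0.0226 in that order. What set that array apart was not tested.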

How the results depend on the processing

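The counts of genes called or apart stayed within 1.5 times the main value under every alternative run; apart from all 3 lines were 4070 genes at a threshold of 0.01 and 4873 with all 24 arrays in the fit, beside 4701. Of the 1917 genes apart by 1 or more, 1907 to 1916 remained when any 1 array was left out. The replicate block, which the numbers do not warrant, gave 8583 called genes in place of 8584, and with it SLC39A7 passed the threshold (adjusted p = 0.0355), as it did in the fit of all 24 arrays (0.0197), without TALL1 replicate 1 (0.0409) and without P12.ICHIKAWA replicate 1 (0.0184). The median difference of all genes was 0.0421, 0.0056 after quantile normalization and -0.0046 after median centring.

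Of 4669 fits of named genes 4631 kept direction and side of the threshold, 23 lost the call, 4 gained it and 11 reversed. With the mean of all probe sets TRBC1 became 1.148, IGHM 1.054, AKT2 -0.02889 and VIM -0.2934. CD79B became -0.06517 with values below 4 set to 4. On the NVS-ZP7-3 arrays FKBP11 became -0.04513, CD79B -0.369 and MYC 0.2184. Without SUPT11 replicate 2 of those arrays, an alternative chosen after seeing the data, they became -0.03366, -0.2618 and 0.2329. RAG1 lost its call on the NVS-ZP7-3 arrays (-2.67 beside -6.59) and kept it without SUPT11 replicate 2 of those arrays. The cause of these changes was not tested. Genes near the floor in SUPT11 have only a bound there, and signal below it is not seen.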

Other observations

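Genes that neighbour each other in the RefSeq order (assembly GRCh38.p14) were read in order after the results were seen, with no test. Among 10422 tested genes with a place there, 17 runs of 4 or more neighbours were apart from all 3 lines by 1 or more in the same direction, 8 higher and 9 lower. The longest, of 7 genes, was higher in SUPT11 and held NBEAL1, CYP20A1, RAPH1, CD28, CTLA4, ICOS and NRP2. The lower runs held BTN3A2, BTN2A2, BTN3A1, BTN3A3 and BTN2A1, butyrophilins that take part in gamma-delta T cell recognition, with LOC285819; GIMAP7, GIMAP4, GIMAP6, GIMAP2 and GIMAP1; IFITM2, IFITM1 and IFITM3 with PGGHG; and OAS3, OAS2, DTX1 and CFAP73. Related genes within a run can share probe signal.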
